A study of Mus musculus with 4 samples.

Results

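Open chromatin regions lying more than 200 kb from every protein-coding transcription start site (TSS) were examined in mouse microglia. Peaks of the 19 autosomes with a summit height of at least 0.25 (pileup per 1000000 tags) were merged over 4 ATAC-seq libraries into 93341 regions. A region was kept when its distance to each of 54340 protein-coding TSS positions of GENCODE M21 (GRCm38) exceeded 200 kb. This left 3404 regions, 3.65% of the total, which are called desert regions here. The choice used position and the height minimum in any library, and did not use the genotype. ATAC-seq marks accessible DNA by the insertions of the Tn5 transposase. The libraries came from untreated, FACS-sorted microglia of 3-month-old C57BL/6 mice, isolated without enzymes, with 2 libraries from wild-type (WT) mice and 2 from mice labelled IRF8KO. How Irf8 was inactivated, in which cells, and how many mice gave each library is not given in the sources used here. The spread between replicates may therefore be technical.

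The name "desert" held only in part. Of the 3404 regions, 680 (19.98%) lay inside the body of a protein-coding gene, 645 of them in an intron, because long genes extend far beyond their own TSS. In all 545 (16.01%) lay inside a long non-coding RNA gene, some of them also in a protein-coding gene, and 2153 (63.2%) lay outside every annotated gene. At the edge of the distance limit, the regions just inside it lay 200.056 kb from Maf, 200.077 kb from Tex29 and 200.128 kb from Runx1, and those just outside lay 199.97 kb from Btg1, 199.941 kb from Enox1 and 199.931 kb from Foxo1.

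Enhancers are stretches of DNA at which transcription factors bind and act on promoters that can be very distant along the chromosome. Long intervals without protein-coding promoters often flank genes for developmental regulators, and many of the enhancers known to act over long distances lie in them. In macrophages, PU.1 (an ETS factor) opens many enhancers together with partners, and IRF8, which binds DNA poorly alone, joins PU.1 at composite ETS-IRF elements. AP-1, CEBP and RUNX factors are other common partners at macrophage enhancers, and CTCF marks boundaries and loop anchors.

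The bases around the summits of 3 of the tallest desert regions of each class are shown because the presence classes below differ in the motifs they hold. The IRF8KO-only regions are the first, the second and the fourth by mean height, and the sequence of the third, near Zfp608 with a CEBP match, is not shown here. Each line gives the summit base of the tallest peak with 100 bp on each side, from the plus strand of GRCm38 (RefSeq sequence), in lower case with motif matches in capitals. The motifs searched on both strands were ETS-IRF (GGAA and GAAA separated by 2 bases of any kind), ISRE, the interferon-stimulated response element (GAAA and GAAA separated by 2 bases), PU.1 (GAGGAAGT), AP-1 (TGACTCA), CEBP (TTGCNNAA), RUNX (TGTGGTT) and CTCF (CCA, AG and GGC, with 2 bases between each), where N is any base. ETS-IRF and ISRE cannot match at the same position, a PU.1 match can share the GGAA of an ETS-IRF match, and a CEBP match can overlap a RUNX match by 2 bases. Among the 93341 windows of the same length, 5.39% held ETS-IRF, 3.59% ISRE, 9.83% PU.1, 6.50% AP-1, 10.1% CEBP, 6.01% RUNX and 6.92% CTCF. A match describes letters and not binding.
Present in all 4 libraries, Camk1d intron, chr2:5379268-5379468, no match: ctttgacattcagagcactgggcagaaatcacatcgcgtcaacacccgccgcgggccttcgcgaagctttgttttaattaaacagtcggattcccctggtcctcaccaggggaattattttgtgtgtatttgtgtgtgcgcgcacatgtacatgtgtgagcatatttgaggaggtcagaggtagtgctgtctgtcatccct
Present in all 4, between Grxcr1 and Kctd8, chr5:68735301-68735501, no match: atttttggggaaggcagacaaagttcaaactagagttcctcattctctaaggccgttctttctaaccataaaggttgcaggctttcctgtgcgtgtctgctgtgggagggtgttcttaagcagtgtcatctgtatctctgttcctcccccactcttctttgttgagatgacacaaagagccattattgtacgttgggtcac
Present in all 4, between Pcdh7 and G6pd2, chr5:59996679-59996879, ISRE and PU.1: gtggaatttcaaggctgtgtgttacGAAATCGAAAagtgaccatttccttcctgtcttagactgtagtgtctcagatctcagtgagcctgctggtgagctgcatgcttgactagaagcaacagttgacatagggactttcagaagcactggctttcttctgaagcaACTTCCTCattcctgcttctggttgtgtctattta
WT-only, between Sall1 and Tox3, chr8:89392814-89393014, CEBP: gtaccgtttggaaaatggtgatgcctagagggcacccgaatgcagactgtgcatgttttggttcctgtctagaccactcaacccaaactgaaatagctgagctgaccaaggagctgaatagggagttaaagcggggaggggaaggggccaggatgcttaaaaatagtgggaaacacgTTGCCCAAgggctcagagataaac
WT-only, between Lrrtm4 and Gcfc2, chr6:81447743-81447943, no match: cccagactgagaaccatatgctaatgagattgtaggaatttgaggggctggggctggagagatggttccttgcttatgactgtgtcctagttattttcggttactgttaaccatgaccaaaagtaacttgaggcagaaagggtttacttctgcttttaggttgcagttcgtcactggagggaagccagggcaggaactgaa
WT-only, between Sall1 and Tox3, chr8:89404350-89404550, ETS-IRF: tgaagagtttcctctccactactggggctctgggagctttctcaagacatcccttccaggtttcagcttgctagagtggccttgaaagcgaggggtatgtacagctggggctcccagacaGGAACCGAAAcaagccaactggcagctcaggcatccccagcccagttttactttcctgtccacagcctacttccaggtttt
IRF8KO-only, between Cox7c and Edil3, chr13:88459607-88459807, CEBP: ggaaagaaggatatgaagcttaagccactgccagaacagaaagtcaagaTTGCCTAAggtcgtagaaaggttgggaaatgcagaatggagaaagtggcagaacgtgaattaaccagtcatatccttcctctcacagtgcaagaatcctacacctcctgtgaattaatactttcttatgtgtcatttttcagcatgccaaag
IRF8KO-only, between Has2 and Slc22a22, chr15:57037279-57037479, RUNX overlapping CEBP: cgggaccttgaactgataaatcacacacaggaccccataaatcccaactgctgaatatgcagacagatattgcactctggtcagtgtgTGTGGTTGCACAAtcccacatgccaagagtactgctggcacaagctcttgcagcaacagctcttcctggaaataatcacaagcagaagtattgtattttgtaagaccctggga
IRF8KO-only, between Tenm2 and Mat2b, chr11:40402340-40402540, AP-1: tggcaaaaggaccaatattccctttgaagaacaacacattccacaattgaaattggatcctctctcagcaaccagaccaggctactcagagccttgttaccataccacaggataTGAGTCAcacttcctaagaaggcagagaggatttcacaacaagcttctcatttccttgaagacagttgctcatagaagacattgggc

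Depth followed genotype and 1 library stood apart. The WT libraries held 46948938 and 48896408 tags of 50 bp and the IRF8KO libraries 78793572 and 66224648 tags of 49 bp, so depth, tag size and genotype cannot be told apart. IRF8KO replicate 1 had the fewest regions present (48278, against 63158 to 73420 in the other libraries) and the lowest median height of the regions open in all 4 libraries (0.736, against 1.002 to 1.24). Height is the deposited pileup at the summit per 1000000 tags of the library. A height of 0.25 corresponds to a pileup of 11.7 to 19.7, and the lowest deposited peaks had heights of 0.102 to 0.128. The Irf8 promoter was open in all 4 libraries (2.07 and 1.49 in WT, 0.863 and 1.36 in IRF8KO), which does not check the labels, since the allele is not given in the sources used here. Of 12 microglial marker genes, 12 were open within 1 kb of a TSS in both WT libraries and 11 in both IRF8KO libraries, and the exception in both was Sall1 (heights 2.17 and 2.05 in WT, no peak in IRF8KO replicate 1, 0.151 in IRF8KO replicate 2). Heights summed over the 12 were 34.6 and 25.9 in WT and 16.03 and 24.6 in IRF8KO, lower in both IRF8KO libraries, and P2ry12, a purinergic receptor gene, had 3.73 and 2.37 against 0.749 and 1.39. Endothelial markers summed to 7.31 and 5.91 in WT and 1.43 and 2.20 in IRF8KO, mostly through Cdh5 (5.86 and 4.81 against 0.647 and 0.936), while Pecam1 was highest in IRF8KO replicate 2 (0.876, against 0.618 and 0.573 in WT). Of the 5, 4, 3, 3 and 2 were open in the order WT 1, WT 2, IRF8KO 1, IRF8KO 2, and Tie1 in none. Border macrophage markers moved the other way (1.09 and 0.757 against 2.42 and 3.87, 2, 2, 3 and 3 of 5 open, Lyve1 and Cd163 in none). Oligodendrocyte markers summed to 2.64, 2.52, 0.914 and 1.54 (3, 4, 1 and 1 of 6 open, Sox10 among those open in none). Neuron markers summed to 1.02, 1.74, 0.876 and 0.861 (2, 2, 0 and 2 of 6 open, Rbfox3, Syt1 and Gad1 in none), astrocyte markers to 1.96, 1.47, 1.41 and 2.36 (4, 2, 1 and 2 of 6 open, Aqp4 and Gja1 in none), and neutrophil markers to 0.405, 0.123, 0.279 and 0.423 (0, 0, 0 and 1 of 6 open, S100a9 and Ly6g among those open in none). Lymphocyte markers summed to 1.30 and 1.51 against 3.71 and 3.44, with 1 of 5, Cd3d, open in each library and Cd3e among those open in none. The part of these cells in the results below was not tested.

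Deserts were sparsely open. The bases beyond 200 kb made up 25.6% of the unambiguous autosomal bases (612.957 Mb) and held 5.55 regions per megabase, against 33.8 between 10 and 200 kb and 100.7 within 10 kb. Density fell with distance, from 10.2 per megabase at 200 to 300 kb to 5.71 at 300 to 500 kb, 2.57 at 500 to 1000 kb and 1.34 beyond 1000 kb. The median distance of a desert region was 293 kb and the largest was 2307 kb. Desert regions had a median length of 240 bp, against 262 bp at 10 to 200 kb and 270.0 bp over all regions. Those present in all 4 libraries were longer, with a median of 430.5 bp, against 414 bp at 10 to 200 kb.

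**Figure D1:**
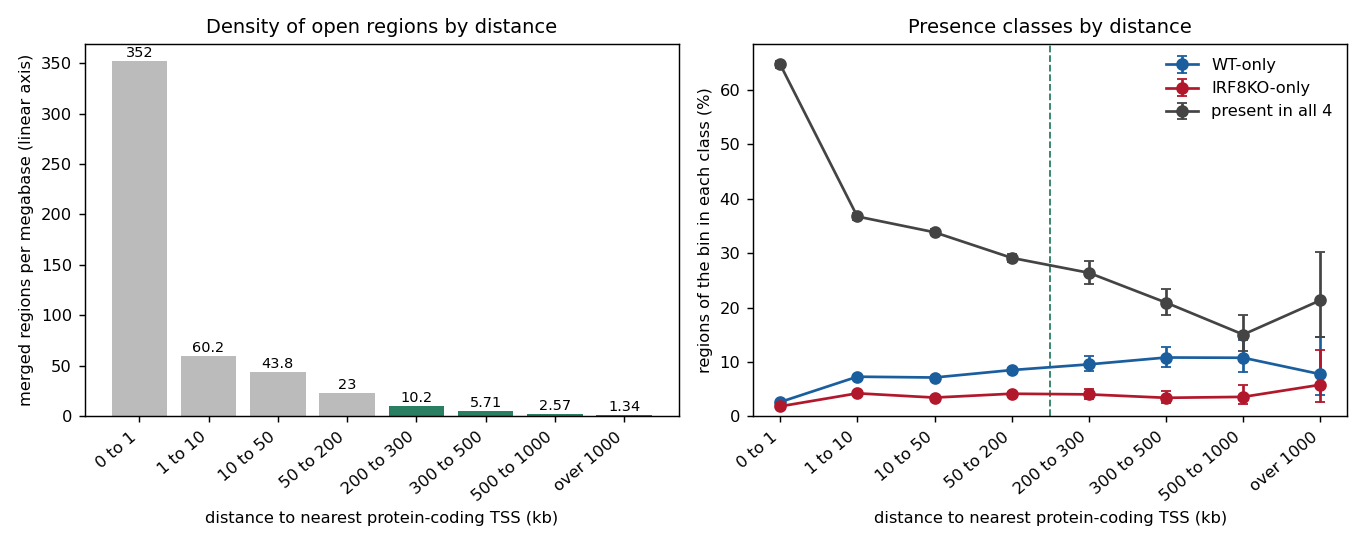
Left, merged regions per megabase of autosome in 8 bins of distance to the nearest protein-coding TSS (green bins lie beyond 200 kb); right, the percentage of each bin that was WT-only, IRF8KO-only or present in all 4 libraries, with 95% Wilson intervals. Density falls from 352 within 1 kb to 1.34 beyond 1000 kb, and the all-4 share falls from 64.7% to 26.4% at 200 to 300 kb.

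GC content and the share with a CTCF motif were lower in desert regions than in regions at 10 to 200 kb in every library. Median height was lower in 3 libraries and equal in 1, and repeat content had no common direction. Desert regions present in a library had a mean GC content lower by 2.84 ± 0.169 percentage points (SD over 4 libraries, lower in 4 of 4, exact two-sided sign-flip p 0.13, Benjamini-Hochberg adjusted 0.25). Their CTCF share was lower by 3.31 ± 0.239 percentage points (lower in 4 of 4, exact sign-flip p 0.13, adjusted 0.25). With 4 libraries 0.13 is the smallest p possible, so neither could pass 0.05. With a motif window of 50 bp on each side of the summit in place of 100 bp the CTCF difference shrank to -0.72 points. The CTCF share of present desert regions was 5.27%, 5.61%, 5.38% and 6.28% in WT replicates 1 and 2 and IRF8KO replicates 1 and 2, against 8.79%, 9.09%, 8.38% and 9.54% at 10 to 200 kb, so the ranges did not overlap. Median height differed by -0.0375 (exact sign-flip p 0.25), and the share of summits in soft-masked repeats by 0.946 ± 1.46 points (higher in 2 and lower in 2).

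The number of open desert regions was lower in the IRF8KO libraries on average, within the spread of the replicates. WT replicates 1 and 2 held 2427 and 1995 desert regions, IRF8KO replicates 1 and 2 held 1133 and 1991. IRF8KO replicate 1 was far below the other 3 libraries, and IRF8KO replicate 2 lay 4 regions below the lower WT library. The means were 2211 ± 305 and 1562 ± 607 (SD, n = 2 each), a difference of -649 (exact two-sided permutation p 0.333, the smallest that 2 against 2 libraries allow). The difference was -220 without IRF8KO replicate 1 and -1078 without IRF8KO replicate 2. Desert regions made up 3.31%, 3.16%, 2.35% and 3.02% of all regions present in the same order (difference -0.550 percentage points, exact permutation p 0.333), and this difference was -0.214 points without IRF8KO replicate 1 and -0.885 without IRF8KO replicate 2. Fewer cells with an open region and less openness per cell cannot be told apart in bulk libraries.

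Of the 3404 desert regions, 1224 (36.0%) reached the height minimum in a single library, against 24.6% of all regions and 27.7% of those at 10 to 200 kb, 1002 in 2, 394 in 3 and 784 in all 4. WT-only regions, at or above the minimum in both WT libraries and without any deposited peak in both IRF8KO libraries, numbered 343 (10.1%), against 6.47% of all regions and 7.6% of those at 10 to 200 kb. The converse IRF8KO-only regions numbered 131 (3.85%), close to 3.41% of all regions and 3.7% at 10 to 200 kb. Regions present in all 4 made up 23.0% of desert regions, against 40.6% of all regions and 32.3% at 10 to 200 kb. The share of WT-only regions was 9.57% at 200 to 300 kb, 10.8% at 300 to 500 kb, 10.8% at 500 to 1000 kb and 7.77% beyond 1000 kb, with overlapping 95% Wilson intervals. These shares compare regions, which are not replicates, and have no test. Without WT replicate 2 the WT-only count was 694 (all regions 12.7%, desert regions 20.4%), without IRF8KO replicate 2 it was 542 (all regions 10.4%, desert regions 15.9%) and without IRF8KO replicate 1 it was 373 (7.50% and 10.96%). The IRF8KO-only count was 389 without IRF8KO replicate 1 (11.4% of desert regions, 8.60% of all) and 147 without IRF8KO replicate 2 (4.32% and 4.34%).

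The shares of the classes varied with height. Desert regions with a tallest peak of 0.25 to 0.5 numbered 1839 (54.0%), and 287 (8.43%) exceeded 2. Among the desert regions of 0.25 to 0.5, 8.27% were WT-only, 2.07% IRF8KO-only and 2.23% present in all 4, against 7.19%, 2.92% and 3.88% at 10 to 200 kb. Among desert regions of 0.5 to 1, 17.4% were WT-only, 6.63% IRF8KO-only and 28.8% present in all 4, against 11.1%, 6.11% and 39.2% at 10 to 200 kb. Between 1 and 2 the shares were 7.78%, 6.48% and 57.02%, against 6.36%, 3.35% and 70.9%. Among those above 2, 4.53% were WT-only, 3.14% IRF8KO-only and 85.0% present in all 4, against 2.44%, 1.596% and 89.8% at 10 to 200 kb. The IRF8KO-only share was below that at 10 to 200 kb in the lowest of the 4 height ranges and above it in the other 3.

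The motifs of WT-only and IRF8KO-only desert regions were different. ETS-IRF, the element IRF8 shares with PU.1, stood in 88 of 343 WT-only regions (25.7%, 95% Wilson interval 21.3 to 30.5), in 5 of 131 IRF8KO-only regions (3.82%, 1.64 to 8.62) and in 50 of 784 all-4 regions (6.38%). The difference between the first pair was 21.8 percentage points (95% Newcombe interval 15.4 to 27.2, covering counting error only). AP-1 went the other way, with 10 WT-only (2.92%) and 25 IRF8KO-only matches (19.1%), a difference of -16.2 points (-23.9 to -9.89). Without IRF8KO replicate 1 the AP-1 difference was -9.89 points, and without WT replicate 2 the ETS-IRF difference was 13.4 points. CEBP stood in 10.8% of WT-only and 21.4% of IRF8KO-only regions, and RUNX in 5.25% and 16.03%. PU.1 was most frequent in all-4 regions (17.5%, interval 14.98 to 20.3, against 9.33%, 6.69 to 12.9, in WT-only and 11.5%, 7.06 to 18.03, in IRF8KO-only regions), and ISRE was at 6.71%, 6.87% and 5.48%. CTCF stood in 52 all-4 regions (6.63%), 4 WT-only (1.17%) and 1 IRF8KO-only (0.763%), and in 114 (5.31%) of the 2146 desert regions outside these 3 classes. Over all 93341 regions the ETS-IRF shares of the 3 classes were 19.95%, 1.85% and 4.01%, so the order of the classes was the same beyond and within 200 kb.

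**Figure D2:**
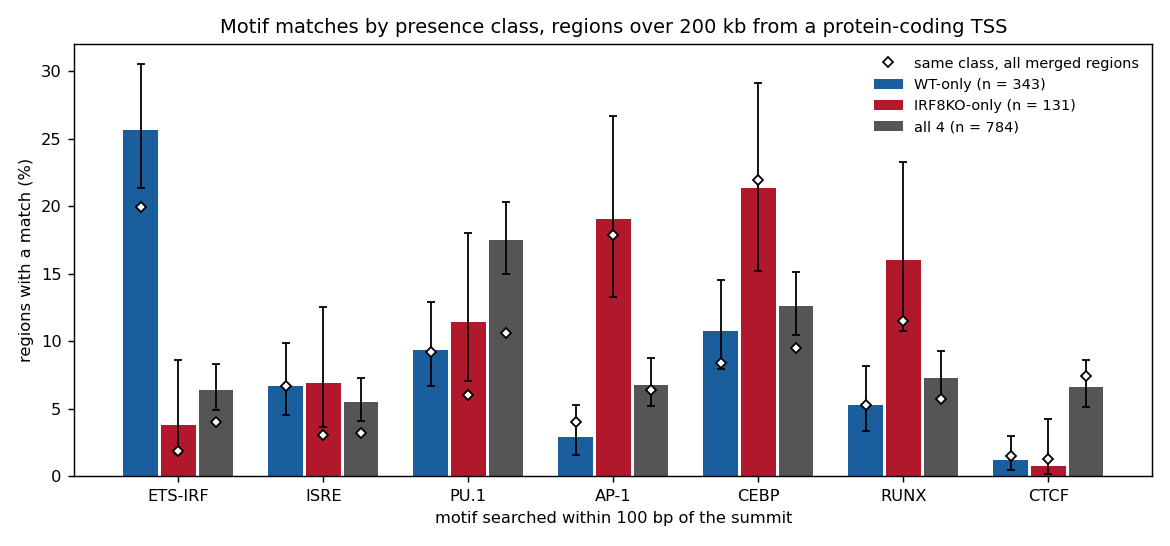
Percentage of desert regions with a match to each of 7 motifs within 100 bp of the summit, by presence class, with 95% Wilson intervals; white diamonds give the same class over all merged regions. ETS-IRF reaches 25.7% in WT-only regions and AP-1 19.1% in IRF8KO-only regions.

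Shares per library went the same way. They were taken over the same regions as the classes, so they are no separate support. WT-only regions enter the WT shares alone, and IRF8KO-only regions the IRF8KO shares alone. ETS-IRF stood in 10.01% and 10.4% of desert regions present in WT replicates 1 and 2, and in 5.83% and 5.22% of those in IRF8KO replicates 1 and 2 (difference -4.69 points, exact permutation p 0.333, adjusted 0.5 over 15 motifs). Every WT value lay above every IRF8KO value, by more than the spread within a genotype. AP-1 stood in 6.06% and 6.17% against 9.18% and 8.84% (difference 2.90 points, exact permutation p 0.333, adjusted 0.5). CEBP stood in 12.0% and 12.2% against 14.3% and 14.4%, and RUNX in 6.14% and 5.71% against 8.83% and 7.99% (same p values, exact permutation). In each of these motifs the genotypes did not overlap, as in 10 of the 15 motifs searched, PU.1 (14.2% and 14.7% against 15.9% and 16.02%) and ISRE among them, and with 2 libraries each no smaller exact p was possible. At 10 to 200 kb they did not overlap in 11 of 15, and ETS-IRF stood in 7.41% and 7.83% against 4.38% and 4.09% (difference -3.39 points). The AP-1 and CEBP differences at 10 to 200 kb, 3.13 and 3.07 points, were above the 2.90 and 2.25 points of the desert regions. The RUNX difference, 1.56 points, was below their 2.48. Differences between these 2 sets of regions were not tested.

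Among the 784 desert regions open in all 4 libraries, 249 (31.8%) had both IRF8KO heights below both WT heights, against 34.8% of all such regions and 31.4% at 10 to 200 kb. In the other direction there were 137 (17.5%), against 11.4% of all and 15.8% at 10 to 200 kb. The median log2 ratio of mean IRF8KO to mean WT height was -0.16, and in the same regions was -0.54 for IRF8KO replicate 1 and 0.15 for replicate 2 alone. Over all regions open in all 4 it was -0.25, and after division of each library by its median height over those regions it was 0.081 in the desert regions, so the sign depended on the scaling. Over the regions open in the 3 remaining libraries, it was 0.0023 without IRF8KO replicate 1 (1081 regions) and 0.017 without WT replicate 1 (807 regions). The 50 regions with ETS-IRF had a median log2 ratio of -0.60 (-1.06 for IRF8KO replicate 1 and -0.27 for replicate 2 alone), and both IRF8KO heights lay below in 25 (50%), while the 734 without it had -0.13 and 30.5%. With ETS-IRF, the values were -0.58 and 56.8% over all regions open in all 4 and -0.67 and 57.8% at 10 to 200 kb.

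The tallest desert region present in all 4 libraries lay in an intron of Camk1d, a calcium/calmodulin-dependent kinase gene, 241 kb from the TSS of Ccdc3 (chr2:5379007-5379408). Its heights were 14.1 and 9.80 in the WT libraries, above the 4.33 and 4.71 of the IRF8KO libraries (log2 ratio -1.41), with no overlap. Copies of its sequence were searched in the mitochondrial genome and the assembled chromosomes only. Whether reads from repeated sequence outside these, such as ribosomal RNA genes, added to its heights was not tested. The region between Grxcr1 and Kctd8 (chr5:68735175-68735661) had 8.48, 6.65, 6.56 and 9.21, and the one between Pcdh7, a protocadherin gene, and G6pd2 (chr5:59996567-59997122), 1812 kb from any protein-coding TSS and inside the non-coding gene Gm42862, had 6.48, 5.42, 7.40 and 10.4. The first of these overlapped between genotypes and the second had both IRF8KO heights above both WT heights (log2 ratio 0.58). A region within the adhesion receptor gene Adgrv1 (chr13:81136557-81137251) had 7.18, 6.42, 6.24 and 8.14. The fifth lay between Ptprd, a receptor phosphatase gene, and Tyrp1 (chr4:80002733-80003022), with 7.33, 8.04, 2.96 and 7.87, low in IRF8KO replicate 1 alone, and its sequence also occurs in the mitochondrial genome.

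The tallest WT-only desert regions were 2 near Sall1 and 3 at other loci. The region at chr8:89392719-89393144, 349 kb from Sall1, had heights of 4.28 and 3.13 in WT and no peak of any strength in either IRF8KO library. The region at chr8:89404170-89404649, 360 kb from Sall1, had 3.13 and 2.58 and held the ETS-IRF match shown above. Regions between Lrrtm4, a synaptic gene, and Gcfc2 (chr6:81447480-81448053; 3.17 and 2.78), between the kinase gene Plk2 and Actbl2 (chr13:110601743-110602217; 2.81 and 2.62) and near Atp2b1, a plasma membrane calcium pump gene (chr10:98619163-98619543; 3.22 and 2.21, with ETS-IRF and CEBP), likewise had no IRF8KO peak. The lowest heights deposited anywhere in the IRF8KO libraries were 0.102 and 0.106.

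IRF8KO-only regions reached similar heights. The tallest, between Cox7c and Edil3, an integrin ligand gene (chr13:88459519-88460068), had heights of 3.76 and 4.74 in IRF8KO replicates 1 and 2 and no WT peak. A region between the hyaluronan synthase gene Has2 and Slc22a22 (chr15:57037137-57037619) had 1.69 and 3.70, with the CEBP and RUNX matches above. Regions near Zfp608 on chromosome 18 (2.06 and 3.04), between Tenm2 and Mat2b (chr11:40402285-40402811; 1.498 and 2.78, with AP-1) and in an intron of the muscarinic receptor gene Chrm3 (chr13:10109480-10110245; 1.69 and 2.55) completed the 5 tallest. In all 5 the value of IRF8KO replicate 1 was the lower of the pair. The summit of the Chrm3 region lay in a soft-masked repeat, and its window held an ETS-IRF match.

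Height differences in regions open in all 4 libraries were largest near Id2, a gene for an inhibitor of helix-loop-helix factors. There a region inside the non-coding gene Gm36723 (chr12:25330030-25330567), 233 kb from Id2, had 5.07 and 4.19 in WT against 0.355 and 0.725 in IRF8KO (log2 ratio -3.10). A region in the gap between Gm11361 and Sox4, inside 2610307P16Rik (chr13:28573420-28573751), had 3.22 and 2.25 against 0.279 and 0.393 (log2 ratio -3.02), and one near Bmper (chr9:22962189-22962823) had 4.32 and 2.92 against 0.406 and 0.619 (log2 ratio -2.82). In the other direction, a region between the sialyltransferase gene St3gal1 and Zfat (chr15:67780759-67781287) had 0.703 and 0.429 in WT and 3.62 and 5.60 in IRF8KO (log2 ratio 3.03). A region inside Pvt1, the long non-coding gene next to Myc (chr15:62252075-62252534), had 0.554 and 0.450 against 2.96 and 3.96 (log2 ratio 2.78), and one in an intron of the chromatin remodeller gene Arid1b (chr17:5206807-5207235) had 0.277 and 0.307 against 1.14 and 2.55 (log2 ratio 2.66). In these 6 regions the genotypes did not overlap. The regions were ranked by these ratios, so the ratios are a description.

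**Figure D3:**
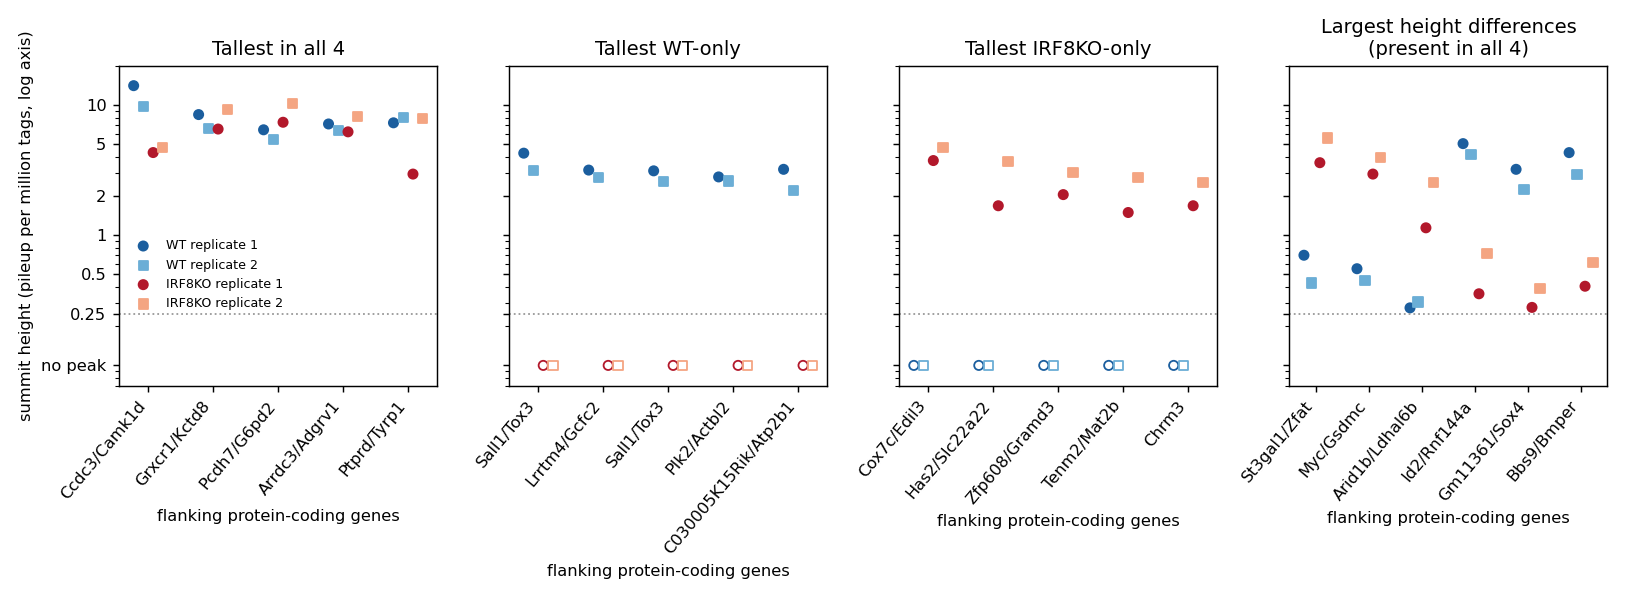
Summit heights in pileup per 1000000 tags (log axis) of the 5 tallest desert regions present in all 4 libraries, the 5 tallest WT-only, the 5 tallest IRF8KO-only and the 3 largest and 3 smallest IRF8KO to WT ratios, each point 1 library; open symbols at the bottom mark a library with no deposited peak, and the dotted line is the minimum of 0.25. The tallest all-4 regions range from 2.96 to 14.1 and the WT-only regions from 2.21 to 4.28 in WT.

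Desert regions were unevenly spread over gaps, and gap length was not accounted for. The 3404 regions lay in 643 gaps between neighbouring protein-coding TSSs, of which 212 held a single region and 104 held 10 or more, together 1847 regions (54.3%). The gap from Nmbr to Cited2, a gene for a transcriptional coregulator, held the most, 48 over 2225 kb, with 28, 27, 21 and 36 present in WT replicates 1 and 2 and IRF8KO replicates 1 and 2. The gap from Rad51b to Zfp36l1, a gene for an RNA-binding protein of mRNA decay, held 46 (35 of them inside a protein-coding gene), with 35, 25, 25 and 31. The gap from Plcl1 to Hsfy2 held 38, with 24, 23, 8 and 24. In these 3 gaps the genotypes overlapped. The gap from Wwox to Maf, a gene for a macrophage bZIP factor, held 43, with 35, 32, 9 and 19, and did not overlap. It had 8 WT-only and 1 IRF8KO-only regions.

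Of the 15 gaps with most desert regions, 6 had both IRF8KO counts below both WT counts, near the 41.3% of the 104 gaps with 10 or more, and none had both above (6.73% of the 104). The gaps named here beyond the 4 with most regions were chosen after their values were seen. Exact permutation p was 0.333 in each of the 6, the smallest possible.

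**Figure D4:**
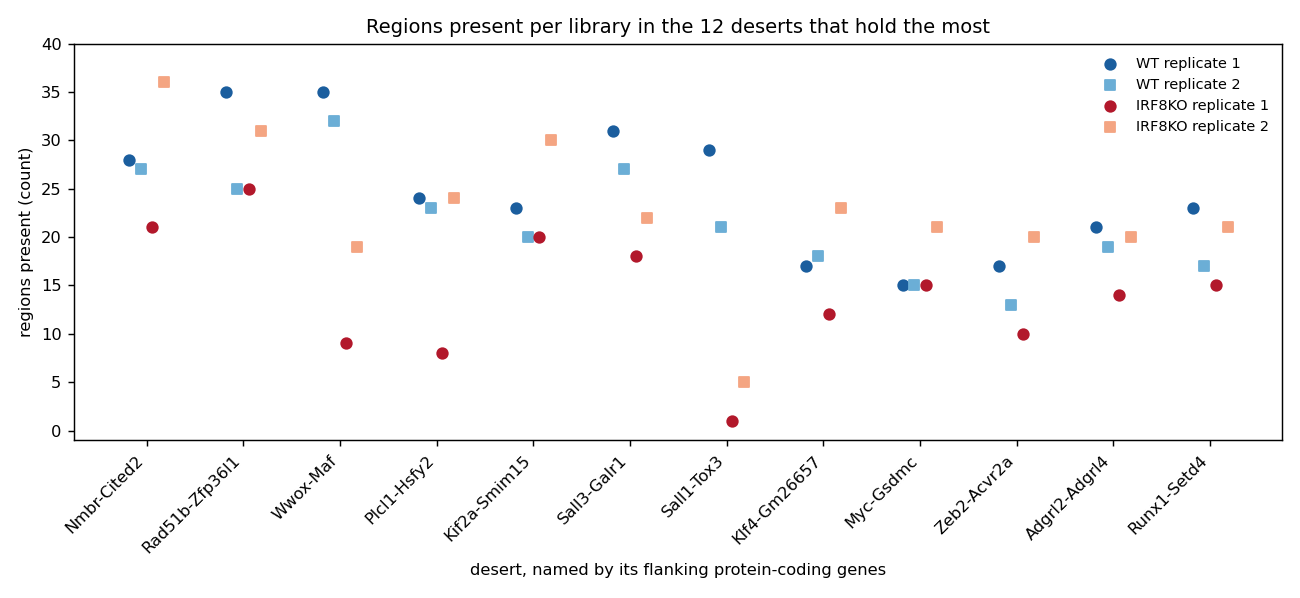
Number of desert regions present in each library in the 12 gaps that hold the most, named by the protein-coding genes on each side. Counts in the gap from Sall1 to Tox3 were 29 and 21 in WT and 1 and 5 in IRF8KO, while those in the gap from Myc to Gsdmc were 15, 15, 15 and 21.

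The gap from Sall1 to Tox3 held 31 regions over 810 kb, of which 11 were WT-only, none IRF8KO-only and 1 present in all 4. SALL1 is a zinc finger repressor that defines microglia among brain macrophages. Counts were 29 and 21 in WT and 1 and 5 in IRF8KO, and 19 of the 31 had no peak in either IRF8KO library. IRF8KO replicate 2 held as many desert regions in all (1991) as WT replicate 2 (1995) to within 4 regions, and 5 against 21 here. The sole region present in all 4, 741 kb from Sall1 (chr8:89785127-89785364), had 0.447, 0.593, 0.393 and 0.468 and was nearer to Tox3. Of regions with some IRF8KO signal, 1 at 597 kb (chr8:89641371-89641707) had 1.58 and 1.49 against 0.228 and 0.438. Counted by nearest TSS, Sall1 had 27 desert regions, of which 25, 18, 0 and 3 were present. A region at 228 kb (chr8:89272353-89272876) with 0.383, 0.429, 0.127 and 0.121 overlapped the VISTA element mm984, annotated in RefSeq as a tested embryonic midbrain and hindbrain enhancer.

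**Figure D5:**
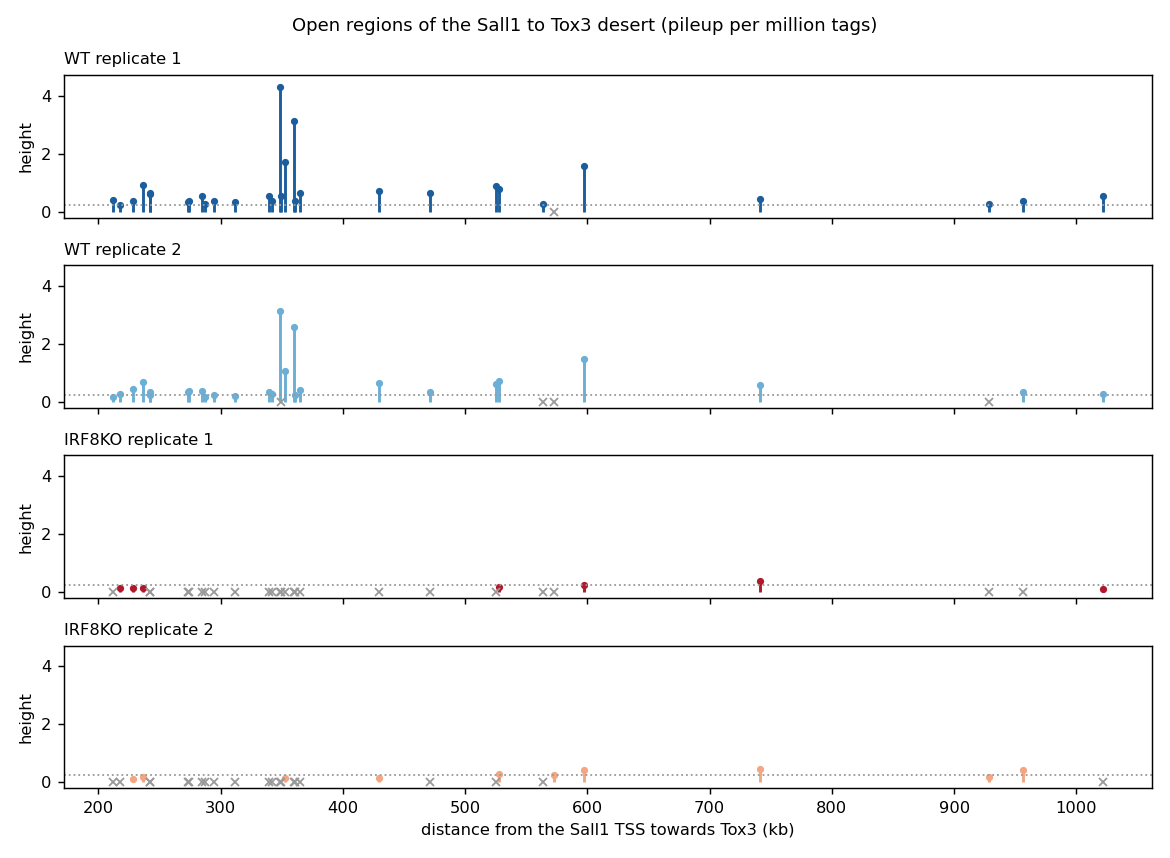
Heights (pileup per 1000000 tags) of the 31 desert regions of the gap from Sall1 to Tox3 in each library, by distance from the Sall1 TSS in kb; grey crosses mark regions with no deposited peak in that library and the dotted line is 0.25. The WT libraries peak at 4.28 and 3.13 at 349 kb, where both IRF8KO libraries have no peak.

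Several genes for macrophage transcription factors lay next to desert regions. Of 50 listed macrophage regulators, 13 (26%) were the nearest gene of at least 1 desert region, against 843 of 20698 protein-coding genes (4.07%). A gene with close neighbours on both sides cannot be nearest to a desert region, and the 20698 include such genes. Of 18 autosomal microglia identity genes 2 were, Sall1 and Tgfbr2 (11.1%). The regulators held 229 desert regions, with 26 WT-only (11.4%, against 10.1% of all desert regions, 11 of the 26 nearest to Sall1), 3 IRF8KO-only (1.31%, against 3.85%) and 61 present in all 4 (26.6%, against 23.0%). Without Sall1, left out after its values were seen, the WT-only share was 15 of 202 (7.43%), below that of all desert regions. No test was run on these counts, and both lists hold Sall1.

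Of the 14 listed genes with desert regions, 6 had both IRF8KO counts below both WT counts and none had both above. The 6 were Sall1, Id2, Maf, Sall3, Runx2 and Fosl2. The 41.3% given above is over gaps with 10 or more desert regions, while several listed genes had 1 to 3, so the shares are not alike. The share over all genes with desert regions was not computed. Id2 had 24 desert regions, with 22, 17, 4 and 10 present, and Maf had 35, with 28, 26, 9 and 17. Sall3, a SALL1 relative, had 26 (24, 20, 13 and 16). Runx1 had 18 (16, 14, 13 and 16), Mef2c 18 (13, 11, 11 and 15), Zeb2 24 (13, 10, 8 and 17) and Klf4 26 (16, 17, 11 and 20), all overlapping between genotypes. Klf6, a zinc finger factor gene, had 15 (13, 10, 6 and 12). Its 6 regions open in all 4 had a median log2 ratio of 0.96. Both IRF8KO heights lay above both WT heights in 4 of these 6, against 17.5% of all desert regions open in all 4. Both lay below in 6 of 8 such regions of Maf, 3 of 3 of Id2 and 3 of 8 of Klf4, against 31.8% of all, and above in none. Jun and Ets1 had 1 such region each, with both below. Above outnumbered below in Sall3 (4 and 2 of 11), Mef2c (2 and 1 of 8), Zeb2 (1 and 0 of 5) and Tgfbr2 (1 and 0 of 2). Runx1 had 1 of each among 10. Ets1 had 9 (6, 4, 2 and 5), Runx2 3 (3, 1, 0 and 0), Jun 3 (2, 2, 1 and 3), Tgfbr2 2, both present in every library, and Fosl2 1, present in both WT libraries alone.

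Other gaps stood out for 1 class of region and were named after their values were seen. The gaps from 4931417E11Rik to Gm9008 and from Lrrtm4 to Gcfc2 held 13 and 11 regions, with 7 and 6 WT-only, and 13, 9, 1 and 1 and 11, 9, 1 and 1 present in the order of libraries above. The gap from Rdh14 to Kcns3 held 8 (8, 7, 0 and 0 present), 6 of them WT-only, and the gap from Gm11361 to Sox4 held 22 (19, 16, 6 and 11), also with 6 WT-only. The gap from Ptger4, a prostaglandin E2 receptor gene, to Dab2, an endocytic adaptor gene, held 18, with 5 IRF8KO-only and no WT-only (10, 8, 11 and 16 present). The gap from Cdh2 to Dsc3 (8 regions; 0, 0, 4 and 8 present) had 4 IRF8KO-only and no WT-only. Gaps with 3 IRF8KO-only regions were those from Nudt12 to Efna5 (12 regions; 5, 3, 8 and 11 present; no WT-only), Rad51b to Zfp36l1 (3 WT-only), Kif2a to Smim15 (1), Myc to Gsdmc (4), Lpp to Tprg (1) and Dach1 to Rpl36a-ps1 (1).

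Some tall desert regions carry sequence shared with the mitochondrial genome. In all, 16 of 3404 desert regions and 43 of 93341 regions matched it, at 80.2% to 99.3% identity in the desert regions, and 3 of the 20 tallest desert regions open in all 4 did. The 3 tallest were the Ptprd to Tyrp1 region above, a region between Flrt2 and Galc (chr12:97061403-97061824; 6.94, 6.89, 4.04 and 8.02) and one between Pcdh7 and G6pd2 (chr5:60042686-60043131; 6.20, 6.01, 2.06 and 6.07). In all 3 the lowest value was that of IRF8KO replicate 1. None of the 16 was WT-only or IRF8KO-only. Whether reads of mitochondrial origin added to these heights was not tested. In addition 53 desert regions had more than 1 near-identical copy on the assembled chromosomes (1.56%, against 1.32% at 10 to 200 kb).

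Within 1 kb of a long non-coding RNA TSS lay 105 desert regions (3.08%, against 3.06% at 10 to 200 kb and 4.78% of all regions). Of these, 40 were open in all 4 (38.1%, against 23.0% of all desert regions), 4 WT-only (3.81%, against 10.1%) and 5 IRF8KO-only (4.76%, against 3.85%). The 3 tallest were at Gm26901 (chr1:7397827-7398472; 6.41, 5.32, 3.97 and 5.57), Gm20125 in the Nmbr to Cited2 gap (chr10:16996842-16997353; 5.26, 4.38, 2.44 and 4.92) and the locus of Gm38397 and 4930526H09Rik (chr13:110902902-110903587; 4.28, 2.99, 2.87 and 4.42). All 3 overlapped between genotypes. RefSeq enhancer elements overlapped 14 desert regions (0.411%, close to 0.395% at 10 to 200 kb, against 0.289% of all regions). The 4 farthest desert regions lay 2307, 2140, 2037 and 1989 kb from any protein-coding TSS. The second, between Cntnap5b and Cdh20 (chr1:102628000-102628372), was open in all 4 libraries with 2.58, 1.68, 0.647 and 0.831 (log2 ratio -1.53), both IRF8KO values below both WT values, while the first (chr1:102404850-102404935) was a peak of 0.286 in WT replicate 2 alone.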

How the data were processed

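The data were 4 peak lists, 1 per library. Per the submitters' processing notes, bcl2fastq, Bowtie2, MACS2 and deepTools were used with the mm10 build. Peaks were called by the authors library by library, per the file headers, with MACS2 2.1.1.20160309 at a p cutoff of 0.01, moving cut sites by 37 bp, extending them to 73 bp, keeping duplicates and taking the background over 10 kb. The deposited pileup is a signal that counts overlapping extended cut sites at a summit and is not scaled. The fold enrichment deposited beside it is a ratio to the local background. Per the file headers the authors give p and q as −log10 values. The headers say that q was not calculated, but the column holds values. A −log10 q of 2 defined the strict alternative. All scores are the authors' own.

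Pileup was expressed per 1000000 tags, on the assumption that it grows in proportion to tag number. Of 15 motifs searched, MAF, E-box, MEF2, NF-kB, NRF1, SOX, NFI and RFX are not described. Peaks were merged with pandas 2.3.3, motifs searched in GRCm38 within 100 bp of the summit, and mitochondrial matches found with megablast (blastn 2.17.0, e-value 1e-10) and copies with minimap2 2.31 (95% identity over 150 bp). Values per library were compared by exact two-sided permutation or sign-flip tests, and Wilson intervals cover counting error only. The steps were tested on simulated lists. Named regions were the 5 tallest of each class, the 4 farthest, the 3 tallest near non-coding TSSs, the 3 tallest mitochondrial matches, the 3 largest and 3 smallest ratios, the 4 fullest gaps and listed neighbours. The regions, motifs and lists were chosen with earlier results of these data known. Some results are not reported here because the items they need are withheld.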

Additional observations from a re-analysis of the deposited data

Results flagged for a closer look

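Chromosome X was outside the comparisons above, which used autosomes. Of its 2103 merged regions, 78 lay over 200 kb from a protein-coding TSS, and 3 of these were IRF8KO-only, open without any deposited peak in the WT libraries (3.85%, against 3.85% of the autosomal desert regions and 2.81% of all chromosome X regions). Another 8 were WT-only (10.3%, against 6.18% of all chromosome X regions) and 11 were open in all 4 libraries.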

How the results depend on the processing

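Counts followed the definition of a desert region. The numbers of desert, WT-only, IRF8KO-only and all-4 regions were 8890, 825, 374 and 2273 beyond 100 kb, 548, 56, 22 and 89 beyond 500 kb, 1146, 145, 46 and 228 with the TSSs of long non-coding genes added, and 1565, 106, 42 and 383 at a height minimum of 0.5. The WT-only share stayed above that of all regions in each of these. It was 9.28%, 10.2% and 12.7% in the first 3 settings, against 6.47%, and 6.77% against 3.93% at 0.5. The IRF8KO-only shares were 4.21%, 4.01% and 4.01%, against 3.41%, and 2.68% against 1.58% at 0.5. The all-4 shares were 25.6%, 16.2% and 19.9%, against 40.6%, and 24.5% against 42.7% at 0.5. With presence set by strict peaks the IRF8KO-only and all-4 counts were 242 (7.11%, against 4.998% of all regions) and 1178 (34.6% against 50.3%). Leaving out each library in turn gave 373 to 694 WT-only and 147 to 389 IRF8KO-only regions. The ETS-IRF difference between these classes was 7.79 points beyond 500 kb, 32.5 at a height of 0.5 and 13.4 to 22.6 with a library left out, and the AP-1 difference -13.2 to -9.89. The log2 height ratio was -0.55 to 0.017 with a library left out (0.0023 without IRF8KO replicate 1, 0.017 without WT replicate 1) and 0.081 after scaling by the median of shared regions. No other result changed its direction. Of 129 differences and ratios under the alternatives (counts and the replicate block left out), 125 kept their sign, 95 of them within 1.5 times of the reported value, 20 smaller and 10 larger than that. The repeat difference was 0 once summits in repeats were left out, by construction.

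The replicate numbers did not pair the libraries (correlation of deviations 0.008 over all regions and -0.045 over desert regions), and with 2 full pairs a replicate block returns the same differences by construction (-649 desert regions present), so it checks nothing. Leaving out desert regions within 200 kb of a RefSeq mRNA start, chosen after seeing the data, left 3021, of which 307 were WT-only. With 2 libraries per genotype no exact permutation test could pass 0.05. Absence means no deposited peak, with a floor of 0.102 to 0.128 per 1000000 tags.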
